A study of Mus musculus with 107 samples.

Results

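Single eggs of mice labelled mos -/- had been divided by the study into groups named M1, M2 and M3, and the comparison described here sets all eggs titled M2 (replicates 1 to 18) against all eggs titled M1 (replicates 6 to 27) within the plates on which they were processed. Of 107 eggs in the series 40 belonged to these groups, 22 M1 and 18 M2. Eggs with under 10000 counts were dropped, which removed M1 egg 18 (1526 counts) and M1 egg 23 (44 counts) and left 20 M1 and 18 M2 eggs. All were eggs of mos -/- C57BL/6J females aged 2 to 3 months that had received 5 IU of PMSG, a gonadotropin that brings follicles to grow, 48 h before the oocytes were taken. The oocytes were kept from resuming meiosis with 2.5 µM milrinone, matured without it, and collected 38 to 40 h after germinal vesicle breakdown for Smart-seq2, a protocol that copies whole polyadenylated transcripts of a single cell and does not mark their strand. The labels do not define M1 and M2. The deposited egg table gives each M1 egg 1 growth and each M2 egg 2 growths, a term that is also left undefined there. No label ties an egg to an animal or a culture, so how many females stand behind each group is not known.

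MOS is a kinase made from stored mRNA when the oocyte resumes meiosis. It switches on MEK and the ERK kinases, and this cascade, as part of the cytostatic factor, holds the egg in metaphase II until sperm entry raises calcium. Eggs without MOS are known to leave that arrest and activate on their own. The egg's mRNA at this stage is a store laid down during growth, and it holds zona pellucida genes, the growth factors GDF9 and BMP15, the subcortical maternal complex and large oocyte families such as the Fbxw, Nlrp, Obox and Oas1 genes. Transcription is largely silent in the mature egg, and stored transcripts are lengthened, masked or degraded in turn.

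The eggs fell on 3 plates, named scO (batch 1), Plate1 and Plate2 (both batch 2) in their library names. Plate scO held 4 M1 and 2 M2 eggs at 5477024 to 8480254 counts each, Plate1 held 5 M1 and 8 M2 eggs and Plate2 held 11 M1 and 8 M2 eggs, at 61689 to 1551993 counts each. Eggs were summed per group and plate, because eggs that may share an animal are not replicates of a group. The M1 sums came to 26211374, 2473478 and 7841484 counts in scO, Plate1 and Plate2, and the M2 sums to 16138121, 6108652 and 4323273. The M1 sum of Plate1 stood apart from the other 8 mutant sums (3.43 on the leading dimension of a scaling plot of log2 CPM, against -0.74 to -0.24). Within it, M1 egg 11 gave 40.0% of the counts, and at an equal depth of 60000 counts only 4650 genes were detected in it. M1 egg 21 of Plate2 had 4005 genes and M2 egg 14 of Plate2 had 2525 at that depth, while the other eggs of Plate2 lay between 5042 and 7118. M1 egg 6 of scO had 7391 genes and was the 1 egg of the comparison that the deposited egg table puts on a plate of its own, PlateA. A fit without these 4 eggs was run as an alternative, and its values are given beside many of those below.

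**Figure D1:**
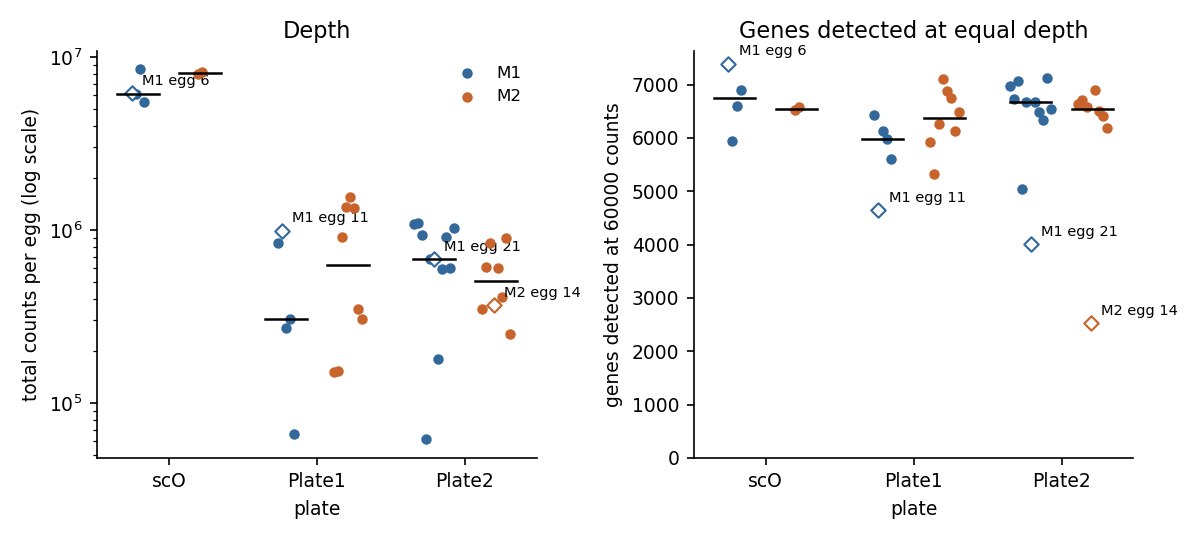
Total counts per egg (left, log scale) and genes detected after thinning each egg to 60000 counts (right) by plate, with M1 in blue and M2 in orange. Bars are medians, and the open diamonds are the 4 eggs set apart, of which M2 egg 14 (2525 genes), M1 egg 21 (4005) and M1 egg 11 (4650) lie below all other eggs in the right panel.

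At 60000 counts M1 eggs had a median of 6744 genes in scO, 5987 in Plate1 and 6666 in Plate2. The medians of M2 eggs were 6547, 6369.5 and 6546.5 in the same order. The differences of means, M2 minus M1, were -157.5, 600.4 and -272.75 genes, so they did not share a sign, and their mean of 56.7 genes is given without a test because an exact sign-flip test over 3 plates cannot give a 2-sided p under 0.25. With the 4 eggs left out the differences were 71.3, 323.4 and -0.56 genes, so that of scO turned its sign and that of Plate2 all but vanished, and their mean was 131.4. All 10 oocyte markers had counts in both groups, with summed raw levels of 6092 to 11007 CPM (a gene's counts relative to the total of the library) in M1 and 3283 to 9598 CPM in M2. The 18 granulosa and cumulus markers summed to 278 to 492 CPM in M1 and 223 to 292 CPM in M2. Of these 11 had a count in M1 and 10 in M2, with Fst, Amh, Fshr, Tnfaip6, Ptx3 and Lum at 0 in both groups. The 9 blood markers summed to 7.29 to 20.5 CPM in M1 and 3.22 to 33.8 CPM in M2, and the 11 markers of theca, stroma and endothelium to 79.1 to 165 CPM and 55.9 to 120 CPM. Ptprc, Hba-a1, Hba-a2, Hbb-bt, Tyrobp, Cdh5 and Col1a2 were at 0 in both groups. Single eggs set some of these limits. The M1 sum of scO held 6092 CPM of oocyte markers with M1 egg 6 and 3679 without it, and the M1 sum of Plate1 held 492 CPM of granulosa and cumulus markers with M1 egg 11 and 314.5 without it. M2 egg 14 held 73 of the 146 blood marker counts in the M2 sum of Plate2, which came to 18.5 CPM without it. The part of other cells in the results was not tested.

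Mos itself (chromosome 4, 3870657 to 3872105, GRCm38) was read in both groups. It had 287 counts over the M1 sums, of which 110 came from M1 egg 6 and 92 from M1 egg 21, and 99 counts over the M2 sums, of which the highest egg held 16. At least 1 count was seen in 14 of the 20 M1 and 15 of the 18 M2 eggs. Per egg the raw level ran from 0 to 135.2 CPM in M1 (median 1.66) and from 0 to 78.9 CPM in M2 (median 6.28), so the ranges overlapped almost wholly. The 24 wildtype eggs of Plate3 ran from 0 to 267 CPM, with 14 eggs at 0 and 31.6 CPM over their sum. Of the mutant eggs M1 eggs 14, 21 and 22 (90.1, 135.2 and 61.0 CPM) and M2 eggs 3 and 16 (78.9 and 39.3 CPM) lay above that sum, and the others lay below it. On the log2 scale the fold of M2 over M1 stood at -0.98 ± 0.64 (± standard error, edgeR adjusted p = 0.831), or at -0.06 ± 0.61 without the 4 eggs. No source used here describes the allele, so these reads say nothing about whether an egg was labelled rightly.

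No gene passed the test between M2 and M1. Of 11009 genes tested, 0 had an edgeR adjusted p under 0.05 (0.0%), and the lowest adjusted p was 0.352, for Fbxw18. At an unadjusted p under 0.05, 430 genes (3.91%) had a negative log2 fold and 263 (2.39%) a positive one. With the 4 eggs left out these shares were 1.13% and 1.23% of 10916 genes, and with M1 egg 11 alone left out 1.93% had a negative fold at that p. DESeq2 called 3 genes higher and 24 lower on the same sums (0.272% of the 9941 genes it gave an adjusted p), with Fbxw18, Sdcbp2, Fbxw16 and Fbxw20 at the lowest p. All values below are therefore of genes that did not pass the edgeR test. Plate sums and egg levels are given for part of these genes.

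**Figure D2:**
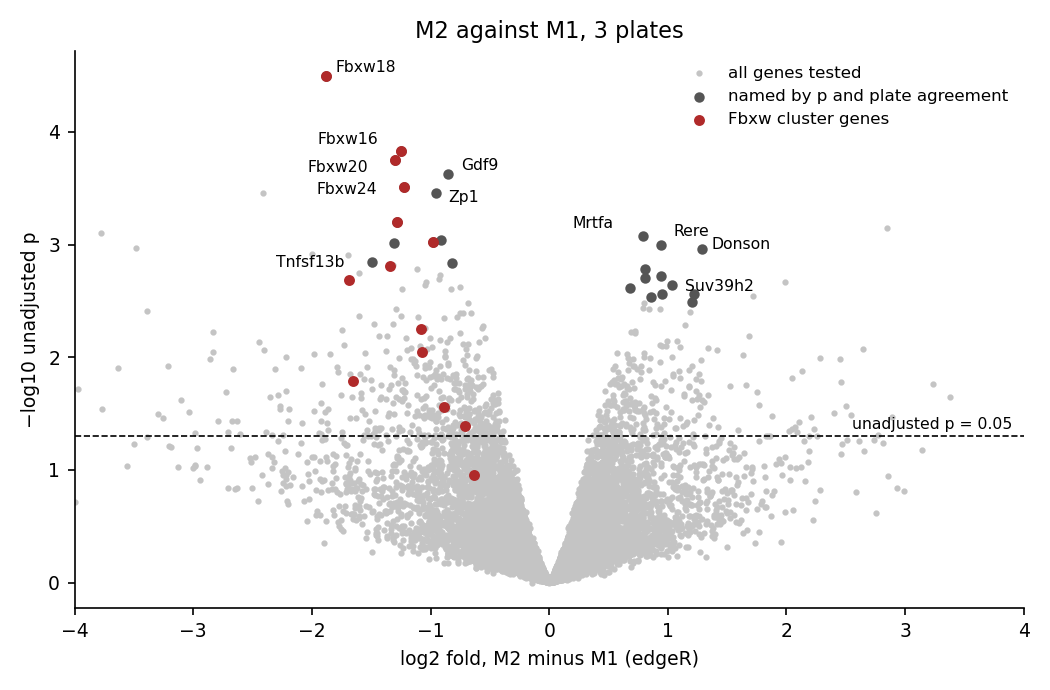
Log2 fold of M2 over M1 against −log10 of the unadjusted edgeR p for 11009 genes, with 13 genes beyond a log2 fold of 4 on either side left off the plot. Of the 14 Fbxw cluster genes (red) 13 have an unadjusted p under 0.05, and Fbxw26 has 0.11. The 24 genes named by p and agreement of plates (dark grey) lie among the genes of lowest p. Fbxw18 is highest at a log2 fold of -1.89, but no gene has an adjusted p under 0.05.

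The plates agreed little over the genome. Across the 6220 genes of at least 4 log2 CPM, the log2 ratio of M2 to M1 in scO correlated with that in Plate2 at 0.14 and with that in Plate1 at -0.02, and Plate1 correlated with Plate2 at -0.03. These are descriptions over genes, which are not independent replicates. Leaving out the 4 eggs gave 0.17, -0.33 and -0.23. Of those genes 854 (13.7%) were higher in M2 in all 3 plates and 777 (12.5%) lower in all 3, and without the 4 eggs 666 (10.7%) and 427 (6.86%).

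The lowest p belonged to Fbxw18, and several Fbxw genes near it were also among the genes of low p. Gdf9 and Zp1, on chromosomes 11 and 19, ranked among them. Their unadjusted edgeR p was 2.4e-04 and 3.5e-04, against 6.3e-04 for Fbxw19. Fbxw genes encode F-box proteins with WD40 repeats, and F-box proteins are the part of SCF ubiquitin ligases that picks the substrate. The mouse has a cluster of them on chromosome 9 (109139447 to 109790670, GRCm38, minus strand) that is known for expression in oocytes, and 15 members are annotated there. The cluster was singled out after its values were seen, so its counts are a description. Of the 14 members tested, 14 had a negative log2 fold, from -0.63 (Fbxw26) to -1.89 (Fbxw18), with a median of -1.24, beside a median of -0.02 over all 11009 genes. At an unadjusted p under 0.05 there were 13 of the 14, against 3.91% of all genes. With the 4 eggs left out 14 of 14 were below 0, with a median of -1.01 and 12 at an unadjusted p under 0.05, against 1.13% of all genes. DESeq2 called 8 of the 14 as lower, beside 24 of all 9941 genes to which it gave an adjusted p.

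Fbxw18 (chromosome 9, 109676734 to 109702700) held 77.7, 551 and 433 TMM-scaled CPM in the M1 sums of scO, Plate1 and Plate2, and 10.1, 218 and 161 CPM in the M2 sums. M2 was thus the lower sum in each plate, and the log2 fold was -1.89 ± 0.30 (edgeR adjusted p = 0.352), or -1.50 ± 0.23 without the 4 eggs. Single eggs overlapped. In Plate1 the raw level ran from 178 to 1561 CPM in M1 (median 645) and from 6.50 to 569 CPM in M2 (median 137.7). In Plate2 it ran from 0 to 1368 CPM in M1 (median 80.4) and from 71.7 to 424 CPM in M2 (median 112), so that 3 M1 eggs lay above and 4 lay below every M2 egg and the medians were in the opposite order to the sums. Over the 136 pairs of an M1 and an M2 egg of the same plate, the M1 egg was higher in 61.8%.

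Fbxw24, the most abundant member named, held 365, 2013 and 1927 CPM in the M1 sums and 118.5, 1147 and 868 CPM in the M2 sums, with a log2 fold of -1.22 ± 0.25. Fbxw16 had a log2 fold of -1.25 ± 0.23, Fbxw20 one of -1.30 ± 0.25, Fbxw19 one of -1.28 ± 0.28 and Fbxw22 one of -0.98 ± 0.23. Without the 4 eggs Fbxw24, Fbxw16, Fbxw20, Fbxw19 and Fbxw22 had -0.99, -1.20, -1.01, -1.17 and -0.64. In each of these 6 members, with Fbxw18, the edgeR adjusted p with all eggs was 0.352 to 0.664. They were lower in M2 in all 3 plates, which was a condition of their choice, so the other 8 cannot be set against them in this. Of those 8 Fbxw21, Fbxw13, Fbxw15 and Fbxw26 were higher in M2 in Plate1 and lower in the other plates. The 14 members had a median log2 ratio of -1.75 in scO, -0.49 in Plate1 and -1.17 in Plate2, beside medians of -0.14, 0.28 and -0.04 over all tested genes.

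**Figure D3:**
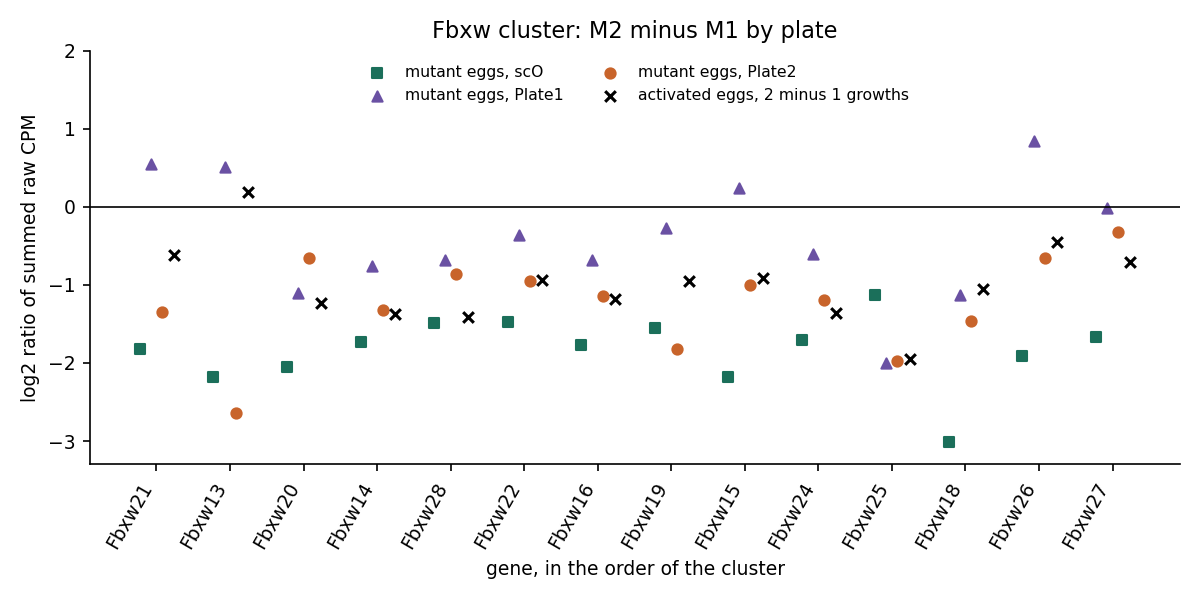
Log2 ratio of summed raw CPM for the 14 tested Fbxw cluster genes in their order along the cluster, M2 over M1 in scO (squares), Plate1 (triangles) and Plate2 (circles), and for activated wildtype eggs with 2 over 1 growths (crosses). All 14 are below 0 in scO and Plate2 and 10 in Plate1, and 13 crosses are below 0, all but that of Fbxw13.

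The summed cluster showed how far single eggs spread. In Plate2 the 11 M1 eggs ran from 292 to 12798 raw CPM (median 1882) and the 8 M2 eggs from 648 to 7316 CPM (median 1793). In Plate1 the range was 1515 to 12911 CPM in M1 (median 7077) and 480 to 7341 CPM in M2 (median 2462). In scO the 4 M1 eggs held 95.1 to 2630 CPM and the 2 M2 eggs 224 and 418 CPM. The medians of Plate2 hardly differed while M1 had 3 eggs above and 2 below all M2 eggs there, and the M1 sum was higher there. The spread of Fbxw18 between eggs of 1 plate, as an SD of log2(raw CPM + 1) without the 4 eggs, was 2.75 over 17 M1 eggs and 1.88 over 17 M2 eggs, and that of Fbxw19 was 2.71 and 1.28.

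Members of the cluster resemble each other, which bears on how reads were counted and on what they share. Over 91 pairs of 14 coding sequences (GENCODE M21), identity was 79.1 to 99.1% with a median of 83.97%. Between 5.77% and 67.1% of the 50-base windows of a transcript recurred in another member, with the highest shares in Fbxw28 and Fbxw14 (58.6%), so reads could have been split or lost between these copies and single members are uncertain. By median the promoters were more alike than the coding sequences, over fewer members. From 250 bases before to 50 after the start (RefSeq, GRCm38.p6), 11 of the 14 tested members had an entry, and identity between them was 83.1 to 97.7% with a median of 91.3%. The promoters of the 3 members of lowest p are printed to show what these genes have in common beside their position, with each CANNTG (the E-box, which reads as CANNTG on both strands) in capitals:
Fbxw18: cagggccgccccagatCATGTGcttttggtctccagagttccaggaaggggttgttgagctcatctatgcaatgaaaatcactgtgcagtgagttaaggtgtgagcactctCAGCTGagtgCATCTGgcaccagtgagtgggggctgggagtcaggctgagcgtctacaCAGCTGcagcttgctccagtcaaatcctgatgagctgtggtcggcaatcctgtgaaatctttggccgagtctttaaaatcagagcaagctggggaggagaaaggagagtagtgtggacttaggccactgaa
Fbxw16: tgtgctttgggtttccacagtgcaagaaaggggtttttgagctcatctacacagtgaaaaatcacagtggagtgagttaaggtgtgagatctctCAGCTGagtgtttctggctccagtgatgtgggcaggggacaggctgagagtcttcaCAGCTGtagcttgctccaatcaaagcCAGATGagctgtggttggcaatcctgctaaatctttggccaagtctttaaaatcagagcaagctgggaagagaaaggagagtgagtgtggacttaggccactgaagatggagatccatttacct
Fbxw20: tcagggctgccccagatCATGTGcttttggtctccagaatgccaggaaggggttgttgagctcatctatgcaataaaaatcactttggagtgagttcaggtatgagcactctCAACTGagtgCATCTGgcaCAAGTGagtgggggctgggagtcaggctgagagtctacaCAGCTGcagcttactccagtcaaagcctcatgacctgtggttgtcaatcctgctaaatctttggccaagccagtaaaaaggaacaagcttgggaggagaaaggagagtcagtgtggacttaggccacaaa
These lie on the minus strand at chr9:109702651-109702950, chr9:109449091-109449390 and chr9:109234705-109235004. They hold 4, 3 and 5 matches. A match to CANNTG was found in 12 of 12 promoters of the cluster, with that of the untested Fbxw23, and in 72.3% of 32851 promoters of the same length. Neither TAATTG nor TATAAA, searched on both strands, was found in those 12, and they occur in 8.0% and 13.6% of all promoters.

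Gdf9 encodes a growth factor that the oocyte secretes to its cumulus cells (chromosome 11, 53431023 to 53437904). It held 731, 2851 and 1709.5 CPM in the M1 sums and 408, 1335 and 1110 CPM in the M2 sums, a log2 fold of -0.85 ± 0.17 (edgeR adjusted p = 0.554). Per egg in Plate1, 5 M1 eggs ran from 1339 to 12610.5 raw CPM (median 3733) and 8 M2 eggs from 563 to 5856 CPM (median 1217). In Plate2 the ranges were 525 to 6606 CPM (median 1132) and 410 to 2282 CPM (median 1039), and in scO 225 to 1970 CPM and 189 and 597 CPM. M1 had 1, 2 and 3 eggs above every M2 egg of scO, Plate1 and Plate2. The log2 fold without the 4 eggs was -0.66 ± 0.24. With eggs thinned to 60000 counts, Gdf9, Fbxw14, Fbxw18, Fbxw19 and Fbxw24 were the 5 genes called, all as lower (edgeR adjusted p of 0.0284 for Gdf9).

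Zp1, a protein that cross-links the filaments of the zona pellucida, held 290, 666 and 572 CPM in the M1 sums and 124.1, 311 and 391 CPM in the M2 sums, a log2 fold of -0.95 ± 0.20 (edgeR adjusted p = 0.554). Without M1 egg 6 alone the log2 fold was -0.53. In scO M1 egg 6 held 918 raw CPM and the other 3 M1 eggs 52.6 to 138.8 CPM, beside 87.6 and 152 CPM in the M2 eggs, and without the 4 eggs the log2 fold was -0.37 ± 0.22. The list of zona pellucida and sperm interaction genes had 13 of 13 tested members below 0, a median of -0.60 and 6 at an unadjusted p under 0.05 (3.91% of all genes). Without the 4 eggs the median was -0.37 and 1 member was under that p. All 10 oocyte markers were below 0 with a median of -0.47 and 4 under that p, and without the 4 eggs the median was -0.19, with 2. In scO, Plate1 and Plate2 11, 9 and 10 of the 13 zona list members were below 0, with medians of -0.92, -0.48 and -0.59. Of the 10 oocyte markers 9, 5 and 8 were below 0 in the same order, with medians of -1.08, -0.22 and -0.20. M1 egg 6 held 85897 of the 159691 oocyte marker counts in the M1 sum of scO.

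**Figure D4:**
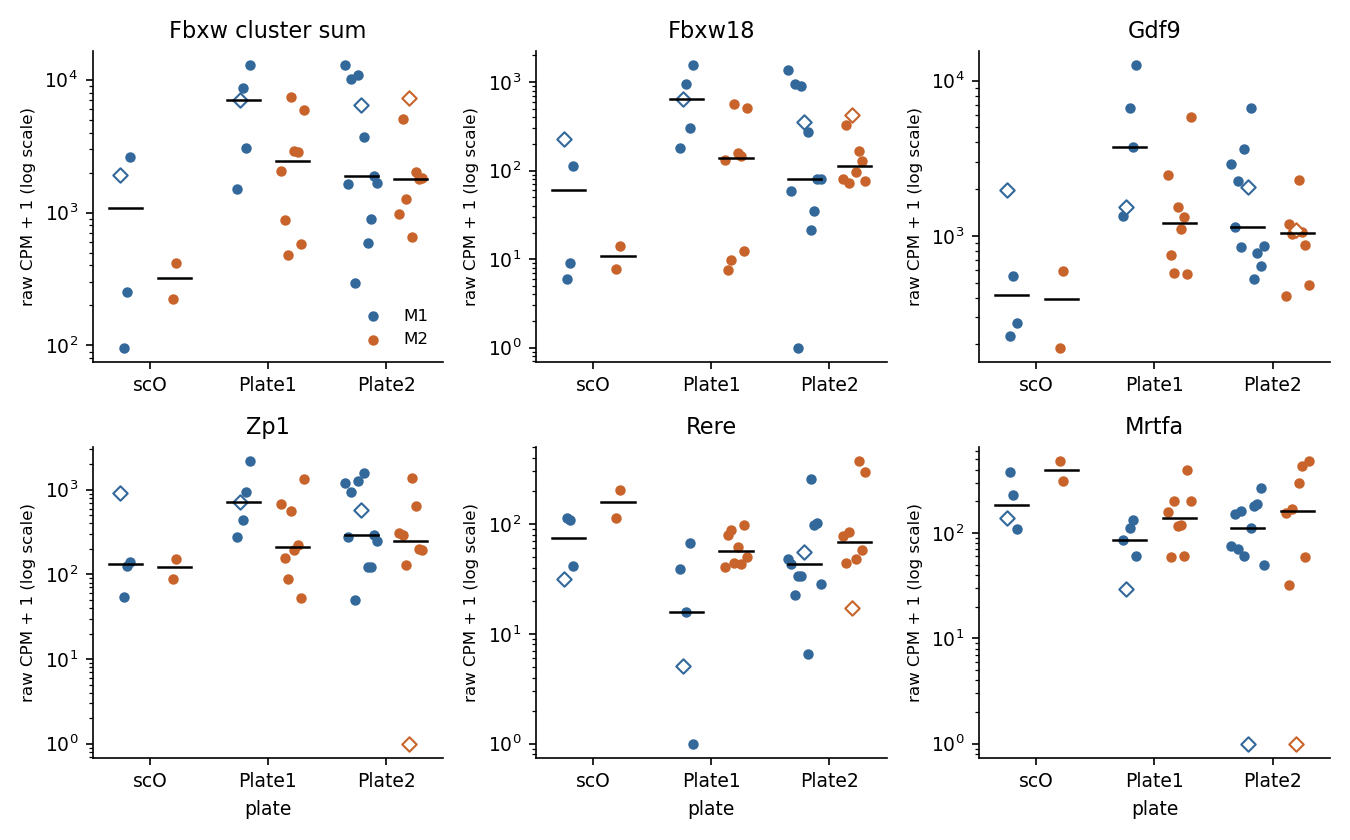
Raw CPM + 1 per egg on a log scale, by plate, for the summed Fbxw cluster and 5 genes, with M1 in blue, M2 in orange, medians as bars and the 4 eggs set apart as open diamonds. The ranges of both groups overlap in each panel and plate of batch 2, and the upper M1 eggs of Plate1 and Plate2 exceed every M2 egg for Fbxw18 (3 and 3 eggs) and Gdf9 (2 and 3 eggs).

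Padi6, which builds the cytoplasmic lattices of the egg, held 712, 2012 and 1810.1 CPM in the M1 sums and 221, 1229 and 1403 CPM in the M2 sums. The fold was -0.92 ± 0.23 on the log2 scale (edgeR adjusted p = 0.664), or -0.55 ± 0.17 without the 4 eggs. Per egg it ran from 396 to 8677 raw CPM in M1 and from 170 to 5836 CPM in M2 of Plate1. The list of maternal effect genes had 18 of 24 members below 0, a median of -0.27 and 6 under an unadjusted p of 0.05, all of them lower (against 3.91% of all genes). Without the 4 eggs the median was -0.12 and 4 were lower. By plate, with all eggs, the median was -0.59 in scO, 0.06 in Plate1 and -0.21 in Plate2. Other oocyte families, added after the values were seen, went the same way over the plates together, in smaller numbers. Below 0 were 10 of 11 Nlrp genes, 4 of 4 Obox genes and 5 of 6 Oas1 genes, with medians of -0.42, -0.60 and -0.38. Leaving out the 4 eggs gave medians of -0.20, -0.28 and -0.13. In Plate1 4 of 11 Nlrp, 1 of 4 Obox and 4 of 6 Oas1 genes were below 0. The medians in that order were 0.06, 0.15 and -0.24 in Plate1. They were -0.54, -1.58 and -0.66 in scO, and -0.43, -0.38 and -0.25 in Plate2. Of all 11009 genes 5647 were below 0.

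The remaining low values of the ranking belonged to genes of different kinds. Pcgf1, a subunit of a variant polycomb repressive complex, held 298, 665 and 397 CPM in the M1 sums and 144.8, 327 and 311 CPM in the M2 sums, with -0.82 ± 0.20 as the log2 fold (edgeR adjusted p = 0.664). Without the 4 eggs its fold was -0.51 ± 0.19. The SD between eggs on the log2 scale was 0.64 in M1 and 0.59 in M2 without the 4 eggs, and 0.72 and 0.59 with them, and the M1 egg was higher in 69.9% of pairs. Dnaaf10, an assembly factor of axonemal dynein, had a log2 fold of -0.91 ± 0.21. Its share of pairs with the M1 egg higher, 78.7%, was the highest among the 24 leading genes. Without the 4 eggs its fold was -0.37 ± 0.27 and the share 75.0%. Tnfsf13b, the cytokine BAFF, had a log2 fold of -1.50 ± 0.37 and -0.20 ± 0.37 without the 4 eggs, and M1 egg 6 held 229 of its 795 M1 counts. A1bg had -1.31 ± 0.30 and -0.15 ± 0.42, and M1 egg 11 held 252 of its 1147 M1 counts.

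The 12 leading genes with positive folds included regulators of transcription, chromatin and lipids. Rere, a nuclear receptor corepressor (chromosome 4, 150281646 to 150621966), held 74.5, 26.6 and 62.5 CPM in the M1 sums and 162, 55.6 and 99.4 CPM in the M2 sums, a log2 fold of 0.94 ± 0.22 (edgeR adjusted p = 0.664). In Plate1 its raw level per egg was 0 to 65.7 CPM in M1 (median 14.8) and 39.5 to 97.1 CPM in M2 (median 55.3), with 4 of the 5 M1 eggs below every M2 egg. In Plate2 the ranges, 5.55 to 254 CPM and 16.3 to 373 CPM, overlapped. Without the 4 eggs the fold was 0.70 ± 0.19.

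Mrtfa, an actin-regulated coactivator of transcription, held 211, 76.8 and 107.5 CPM in the M1 sums and 408, 130 and 170 CPM in the M2 sums, a log2 fold of 0.79 ± 0.18, or 0.59 ± 0.17 without the 4 eggs. Ubap2, which carries a ubiquitin-associated domain, had an SD between eggs of 0.56 in M1 and 0.53 in M2 on the log2 scale without the 4 eggs. With them the SD was 1.65 in M1, since M1 eggs 11 and 21 held 8.09 and 17.6 raw CPM while all other M1 eggs held 221 to 773 CPM. It held 540, 323 and 358 CPM in the M1 sums and 824, 560 and 555 CPM in the M2 sums, and the M1 egg was higher in only 21.3% of pairs, or 23.1% without the 4 eggs. Its log2 fold was 0.68 ± 0.18, or 0.36 ± 0.19 without the 4 eggs. Donson, a factor of the replication fork, had 1.28 ± 0.30 and Suv39h2, a methyltransferase of histone H3 lysine 9, 1.04 ± 0.27, or 0.96 ± 0.27 and 0.73 ± 0.22 without the 4 eggs. In scO, Plate1 and Plate2 the Donson median per egg was 70.7, 3.56 and 27.7 raw CPM in M1. The M2 medians were 198, 16.2 and 20.2 CPM, so that of Plate2 was the lower one there. The log2 ratio of Suv39h2 was 1.01, 1.91 and 0.25 in these plates. Donson, Suv39h2, Mrtfa, Rgp1 and Rnf123 overlap Son, Dclre1c, Sgsm3, Gba2 and Gmppb on the other strand. Without strand, reads of any part that both genes share cannot be told apart, and how many there were was not tested. Other genes named below, such as Patl2, Rac1 and Ndufs3, have overlaps of this kind.

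Pygb, a glycogen phosphorylase, had 1.22 ± 0.33 and kept 1.12 ± 0.28 without the 4 eggs. Rnf123, a ubiquitin ligase, had 0.95 ± 0.25 and 0.70 ± 0.20, and Rgp1, part of an exchange factor for RAB6, 0.94 ± 0.24 and 0.64 ± 0.21. The lipid transfer protein Atg2a had 0.80 ± 0.21 and 0.49 ± 0.21, and the lipid kinase Pik3c2a 0.86 ± 0.23 and 0.56 ± 0.26. Bicra, a subunit of a SWI/SNF-type complex, had 0.81 ± 0.20, and 0.38 ± 0.18 without the 4 eggs, and Ivns1abp, a kelch protein, had 1.2 ± 0.33 and 0.39 ± 0.26. M2 egg 14 held 517 raw CPM of Bicra and 666 CPM of Ivns1abp, while the other M2 eggs of Plate2 held at most 211 and 52.2 CPM. All 12 were higher in M2 in all 3 plates, which was a condition of their choice, and edgeR adjusted p-values were 0.664 to 0.738.

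The lists of the cascade and the cell cycle held few genes at low p. Members counted as lower or higher in these lists are those at an unadjusted p under 0.05. Of 16 members of the MOS and MAP kinase cascade 9 were below 0, the median was -0.04, and 4 were lower, against 0 without the 4 eggs. Its lowest p was that of Rps6ka2, a ribosomal S6 kinase, and 140 of its 171 M1 counts came from M1 egg 21. ERK feedback genes had 0 of 10 under that p, a median of 0.18 and, at the lowest p, the ERK inhibitor Spry4 at 0.33 ± 0.15. Without the 4 eggs Spry4 was at 0.18 ± 0.16. M-phase and cytostatic factors had 3 of 24 lower and a median of 0.05, led by the spindle kinase gene Aurkb at -1.31 ± 0.45 (-0.05 ± 0.36 without the 4 eggs). The anaphase promoting complex list had 2 of 20 lower and a median of -0.02, led by securin, Pttg1, at -0.81 ± 0.29.

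Pttg1 differed between plates. It held 800, 1019 and 1490 CPM in the M1 sums and 222, 715 and 1500 CPM in the M2 sums, so the M2 sum was the lower one in scO and Plate1 and not in Plate2. In Plate2 M2 egg 14 held 4439 raw CPM, above every M1 egg (up to 3555 CPM). The Plate2 medians were 989 CPM in M1 and 1194 CPM in M2 with all eggs, and 949 and 852 CPM without the 4 eggs, so their order turned. Without the 4 eggs the log2 fold was -0.51 ± 0.38. The kinetochore list had 1 of 30 lower (Pmf1, -0.68 ± 0.27), cohesin and condensin 1 of 23 higher (Ncapg2, 0.43 ± 0.20), spindle motors 0 of 29 (Kif2c, -0.68 ± 0.43) and cortical actin 1 of 28 higher (Rac1, 0.74 ± 0.26). Their medians were -0.12, 0.04, 0.05 and 0.05. Without the 4 eggs the folds were -0.27 for Pmf1, 0.31 for Ncapg2, -0.42 for Kif2c and 0.25 for Rac1. DNA replication had 0 of 29 under the unadjusted p (Prim1, -1.05 ± 0.49) and DNA damage 0 of 23 (Atm, 1.43 ± 0.67), with medians of -0.17 and 0.16. The backgrounds beside these counts are 3.91% of all genes lower and 2.39% higher. Without the 4 eggs the medians of these 10 lists lay between -0.08 and 0.13.

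The lists of stored mRNA handling, chromatin, calcium signalling and zygotic genome activation had medians between -0.19 and 0.09. Without the 4 eggs these medians lay between -0.06 and 0.05. The mRNA decay list had 2 of 30 higher, with the deadenylase scaffold Cnot1 at 0.47 ± 0.19, and translational control 2 of 26 lower, with Patl2 at -1.04 ± 0.42, of whose 688 M1 counts M1 egg 6 held 294. Chromatin and DNA methylation had 2 of 33 lower, led by Pcgf1. Calcium signalling had 1 of 21 lower, Mylk, for which 83 M1 counts came from 3 eggs against 1 M2 count. Zygotic genome activation had 0 of 8 tested members under the unadjusted p (Hmox1, 1.70 ± 1.15). M1 egg 8 held 20 of the 21 M1 counts of Hmox1. The backgrounds are again 3.91% of all genes lower and 2.39% higher. Without the 4 eggs mRNA decay had 0 higher and 1 lower, and translational control and calcium signalling had 0 lower. Cnot1 then stood at 0.18 and Patl2 at -0.24. Chromatin and DNA methylation kept 2 lower. The backgrounds were then 1.13% lower and 1.23% higher.

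Housekeeping lists had negative medians, and 0 of their members passed the test. Of 50 ribosomal protein genes 41 were below 0 (median -0.59, 3 lower at an unadjusted p under 0.05, Rplp1 at -0.94 ± 0.33). Of 47 nuclear respiratory chain genes 42 were below 0 (median -0.42, 2 lower at that p, Ndufs3 at -1.08 ± 0.42), and of 32 proteasome genes 27 (median -0.34, 3 lower at that p, Psmc6 at -1.10 ± 0.32). Of all 11009 genes 5647 were below 0, and 3.91% were lower at that p. In scO, Plate1 and Plate2 44, 31 and 29 of the 50 ribosomal genes were below 0. The counts were 43, 28 and 25 of the 47 respiratory chain genes and 30, 18 and 23 of the 32 proteasome genes. Of all genes 6487, 4255 and 5823 were below 0 in these plates. Without the 4 eggs the 3 medians were -0.25, -0.29 and -0.24, with 1 lower in each and 1 ribosomal gene higher. Rplp1, Ndufs3 and Psmc6 then stood at -0.80, -0.37 and -0.45. Heat shock and antioxidant genes had a median of -0.21 (-0.03 without the 4 eggs), with 1 higher and 1 lower of 25 under that p, the lower being the antioxidant regulator Nfe2l2 at -1.21 ± 0.37. Without the 4 eggs Nfe2l2 was at -0.79. The medians were furthest from 0 in scO, and the ribosomal one was -1.04 there, -0.32 in Plate1 and -0.12 in Plate2. The 9 mitochondrially encoded genes had medians of -1.35, -0.80 and 0.05 in the 3 plates, and 0.04 over plates without the 4 eggs (mt-Nd2, -0.94 ± 0.39, then -0.04 ± 0.43). Granulosa and cumulus markers had 2 of 6 tested lower, with aromatase, Cyp19a1, at -1.31 ± 0.32, and -0.64 ± 0.33 without the 4 eggs. Blood markers had 0 of 2 (Laptm5, 0.14 ± 0.44) and theca, stroma and endothelium 0 of 5 under that p. In the latter Star was at -2.21 ± 1.60, and M1 egg 11 held 63.3% of its 180 M1 counts.

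**Figure D5:**
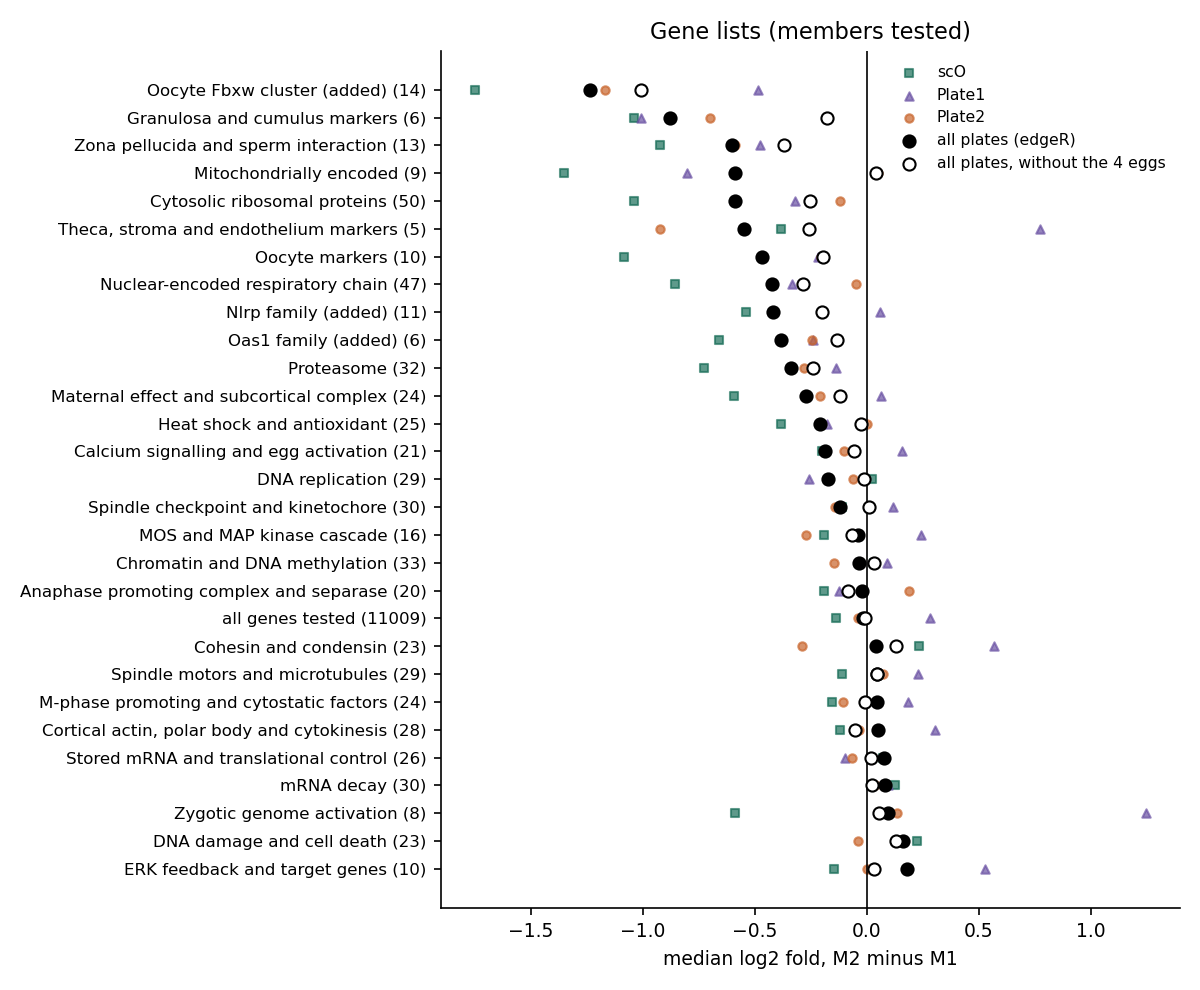
Median log2 fold of M2 over M1 in each gene list with at least 5 tested members (number in brackets), over all plates (black), without the 4 eggs (open) and as the ratio of sums in each plate (coloured). The Fbxw cluster lies lowest at -1.24 and stays at -1.01 without the 4 eggs, the mitochondrially encoded list goes from -0.59 to 0.04, and all tested genes have a median of -0.02.

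Transcript length moved with these values. Among 10581 genes with a transcript in GENCODE M21, divided into 5 groups by length, the group of shortest transcripts (up to 1764 bases) had a median log2 fold of -0.21, and the groups of longer ones -0.07, 0.03, 0.06 and 0.09. In scO the shortest and the longest group had medians of -0.53 and 0.06, in Plate1 0.14 and 0.34, and in Plate2 -0.04 and -0.06. The values without the 4 eggs were -0.11 and 0.03 over all plates. Of the 12 leading genes with negative folds 11 had a length, of which 6 lay in the group of shortest transcripts, 4 in the next and 1, Tnfsf13b (4771 bases), in the group before the longest. Of the 12 with positive folds 0 lay in the shortest group, 1 in the next (Donson, 2365 bases), 1 in the middle one and 5 in each of the others. The 14 Fbxw genes ran from 1483 to 1835 bases, with 11 in the shortest group and 3 in the next. The part of length in the folds of single genes was not tested.

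The eggs that were high in one oocyte transcript tended to be high in others. Within group and plate, over 38 eggs, the log2 level of the Fbxw sum correlated with that of Padi6 at r = 0.74 (Spearman 0.73), with Gdf9 at 0.61 (0.63) and with Zp1 at 0.35 (0.57). With Rere and Mrtfa, from the genes of positive fold, r was -0.48 and -0.48 (Spearman -0.52 and -0.57). In the other 34 eggs r was 0.72 for Padi6, 0.62 for Gdf9, 0.66 for Zp1, -0.44 for Rere and -0.47 for Mrtfa. Eggs of a plate share processing, and levels relative to 1 total are not free of each other, so these are descriptions. The Fbxw sum correlated with the log2 total count of the egg at 0.15, and with the number of genes detected at 60000 counts at 0.03 (0.48 without the 4 eggs). With the percent of mitochondrially encoded counts r was 0.34 (Spearman 0.42), and 0.34 (0.35) without the 4 eggs. The part of depth and of RNA quality in the Fbxw values was not tested.

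The wildtype eggs activated with 10 mM strontium for 2 h offer a separate set with the same growth numbers: 8 eggs with 1 growth (6141561 counts) and 9 with 2 growths (7371387 counts), all on Plate4. Each set is 1 sum, so the ratio has no replicate and no test. In these eggs 13 of the 14 Fbxw members were lower in the 2-growth sum, with a median log2 ratio of -1.0, beside a median of -0.03 over all tested genes with at least 50 counts. Fbxw18 held 159 and 76.2 raw CPM in the 1-growth and 2-growth sums, and Fbxw24 866 and 337 CPM. The exception was Fbxw13 at a log2 ratio of 0.19. Per egg the summed cluster ran from 285 to 5061 raw CPM (median 1980.5) with 1 growth and from 422 to 1914 CPM (median 970) with 2, so the sets overlapped. Wildtype eggs that were not activated (24 eggs of Plate3) ran from 968 to 10233 CPM with a median of 3561, on a plate that held no mutant egg.

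Other genes followed less closely. Gdf9 had a log2 ratio of -0.27, Zp1 of -0.16, Padi6 of -0.30, Rere of 0.28, Mrtfa of 0.09 and Pygb of 0.85 in activated eggs, and Donson had -0.23, against its positive fold in the mutants. Over 6212 genes of at least 4 log2 CPM, 54.8% had the same sign in both comparisons and r was 0.14, a description across genes. Activated and mutant eggs share no library. The meaning of growth is undefined in both sets.

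The difference of the fold between batch 1 (scO) and batch 2 (Plate1 and Plate2) was tested as an interaction, and 0 of 11009 genes passed (edgeR adjusted p under 0.05), with 426 at an unadjusted p under 0.05. DESeq2 called 2, Gpr146 and Myocos. Fbxw18 had a difference of -1.55 (edgeR adjusted p = 0.984), its M2 sum being lower by more in scO. There M1 egg 6 held 224 raw CPM and the other M1 eggs 4.92 to 112 CPM. The p-values of all these fits measure how far the plate sums varied, which may be technical. The sums rest on 2 to 11 eggs each, and the M2 sum of scO on 2.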

How the data were processed

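Whole-number read counts per gene symbol, as deposited by the authors, were used for 40 M1 and M2 and 21 M3 mos mutant eggs. Per the submitters' processing notes, the tools were STAR and HTSeq and the build GRCm38 (mm10), with versions and strand settings not given in the sources used here. Eggs under 10000 counts were dropped and the rest summed per group and plate, giving 9 sums with depths as in the report. Each egg is 1 cell, and the labels name no animal, so eggs were not treated as replicates and p-values measure only the spread between sums. edgeR 4.0.16 (R 4.3.3) was run with TMM scaling, a minimum count of 10, terms for plate and group, robust quasi-likelihood fits and Benjamini-Hochberg adjustment at 0.05. The M3 sums entered the fit to share the estimate of spread, and with it the plate terms and the filter on low counts, which kept 11009 genes. Alternatives used DESeq2 1.42.0, limma 3.58.1, other scalings and filters, eggs thinned to 60000 counts, and fits without single eggs, sums or plates. The limma fits without the 4 eggs, on voom weights and on means over eggs, were added after the data were seen. The steps were tested on simulated data.

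Named genes are those called, at most 12 per direction. Where fewer were called, the places went to genes of lowest unadjusted p with a mean of at least 4 log2 CPM and 1 sign in all 3 plates, leaving out predicted genes and clones. Each list added its called members or its member of lowest p, and Mos was always named. The comparison and its lists were chosen with earlier results of these data known, and the Fbxw, Obox, Oas1 and Nlrp families were added after values were seen. CPM called raw is relative to the total count of the egg or sum. Other CPM is TMM-scaled. Coding sequences were aligned with MAFFT 7.526.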

Additional observations from a re-analysis of the deposited data

Results flagged for a closer look

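The highest and the lowest egg were compared with the rest wherever a group had 4 to 10 eggs on a plate. Each of the 112 comparisons took 1 measure in the eggs of 1 group on 1 plate, so the same eggs recur. The 112 are thus not independent. In 20 of them an egg's gap to the next was wide against the range of the group (above the 95% critical value of Dixon's test). Chance gives about 1 in 20 for normally spread values, and the rate for raw CPM, which is skewed, was not measured. M2 egg 14 of Plate2 had 2525 genes at 60000 counts (others 6189 to 6892), and it was the highest M2 egg of its plate for Bicra (517 raw CPM, others up to 211), Ivns1abp (666 CPM, others up to 52.2) and Fbxw20 (989.99 CPM, others up to 258). M1 egg 11 of Plate1 had 1.17% mitochondrially encoded counts (others up to 0.335%) and 255 CPM of A1bg (others up to 29.5). M1 egg 6 of scO held 918 CPM of Zp1 (others up to 138.8) and 37.2 CPM of Tnfsf13b (others up to 8.49).

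Mos stood at 90.1 CPM in M1 egg 14 of Plate1, which is 6 counts of 66611, at 78.9 CPM in M2 egg 3 of Plate1 and at 39.3 CPM in M2 egg 16 of Plate2. M1 egg 14 also held 2117 CPM of Fbxw19 (others up to 649). M2 egg 9 of Plate1 held 394 CPM of Mrtfa and 926 CPM of Atg2a, the second against at most 256 in the others. Suv39h2 stood at 108.45 CPM in M1 egg 13 and 344 CPM in M2 egg 4 of Plate1. Gdf9 stood at 5856 CPM in M2 egg 10 of Plate1 and 2282 CPM in M2 egg 15 of Plate2, and the latter egg held 1369 CPM of Zp1. Fbxw22 stood at 429 CPM in M2 egg 12 of Plate2. What set these eggs apart was not tested.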

How the results depend on the processing

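The number of genes called was 0 in the reported fit and with the replicate block left out (no plate term), 46 with no filter on low counts, 27 by DESeq2, 5 with eggs thinned to 60000 counts, and 0 to 3 when eggs, sums or plates were left out in turn. The 3 appeared without the M1 sum of Plate1 and were Fbxw16, Fbxw18 and Fbxw19. The share of genes lower at an unadjusted p under 0.05, 3.91%, became 1.78% at a fold of at least 2, 1.55% with no replicate block, 2.60% with the plates of the deposited egg table, 1.13% without the 4 eggs, 2.04% for means over eggs without them, 2.07% with voom without them, and 1.93 to 5.28% with single eggs, sums or plates left out, lowest without M1 egg 11. The share higher, 2.39%, became 0.772% at a fold of at least 2, 3.95% with voom, 1.33% with only the M1 and M2 sums, 0.718% with no replicate block, 3.80% with sums per batch, 1.23% without the 4 eggs, and 1.42 to 4.17% with single eggs, sums or plates left out. The batch difference gave 2 calls by DESeq2. Mos had -1.52 to -0.32 when eggs, sums or plates were left out in turn. Eggs of the same number in M1 and M2 share only a number, so plate was the block.

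The 24 leading genes kept their sign in the 29 alternatives, which their choice for 1 sign in all 3 plates favours. Of 1601 values of named genes 16 changed sign. Kif2c gave 0.12 for means over eggs, 0.064 for those without the 4 eggs, and -1.10 to 0.14 with single eggs, sums or plates left out, highest without the M1 sum of scO. Prim1 gave 0.11 without the 4 eggs. Left out in the same way, mt-Nd2 gave -1.46 to 0.0049 (without M1 egg 11), Star -4.32 to 0.55 (without the M1 sum of Plate1) and Laptm5 -0.33 (without the M2 sum of Plate2) to 0.64. Star also gave 0.068 without M1 egg 11, and mt-Nd2 0.025 with voom without the 4 eggs. Laptm5 also gave -0.13 with sums per batch and without the 4 eggs, -0.24 with voom without the 4 eggs, and -0.28 without M2 egg 14. The cause was not tested.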
